A study of Mus musculus with 2 samples.

Results

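The genes of the matrix metalloproteinases (MMP), of their tissue inhibitors (TIMP), of the ADAMTS proteases and of the ADAMTS-like proteins were examined in 2 mouse rhabdoid tumors (RT), malignant tumors that mostly follow loss of the chromatin remodeling subunit Smarcb1. Members were the protein-coding genes with a symbol made of Mmp, Timp, Adamts or Adamtsl and a number. They numbered 50 of 55416 genes, namely 22 MMP, 4 TIMP, 19 ADAMTS and 5 ADAMTS-like genes. Both tumors came from Dppa3-cre::Smarcb1 Fl/+ mice on a C57BL/6 background, which express Cre recombinase from the Dppa3 locus, a gene of primordial germ cells (PGCs), and carry 1 floxed Smarcb1 allele. The labels place 1 tumor intracranially (trigeminal nerve) and 1 extracranially (facial, maxillar), and class both as MYC. The libraries are called intracranial and extracranial after these labels alone. Ages are not given in the sources used here, no tumor-free tissue was analysed here, and the tumors were sequenced as bulk tissue.

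MMPs are zinc-dependent endopeptidases that are made as inactive proenzymes and, once activated, cleave collagens, proteoglycans and other proteins of the extracellular matrix. TIMPs are small secreted proteins that bind the active site of MMPs and block it. ADAMTS proteases are secreted relatives with thrombospondin repeats that trim procollagens, aggrecan, versican and other matrix proteins, and ADAMTS-like proteins share these repeats but lack the protease domain.

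Total counts were 34545846 (intracranial) and 26915696 (extracranial). Levels are CPM, counts scaled to library size, with exact 95% intervals, and 3 counts corresponded to 0.0863 and 0.112 CPM. Ratios are extracranial over intracranial on the log2 scale, so that negative values stand for a higher level in the intracranial library. With 1 library per location there was no replicate error and no test. A gene was therefore called when the whole exact 95% interval of its ratio lay beyond 4-fold, which compares these 2 libraries with counting error only and not the 2 locations. As reads carried no molecular identifiers and PCR copies were counted, the intervals can be too narrow even for counting error. The intervals and floors cover no other error. Smarcb1, the floxed gene, had 365 and 530 counts, which is 10.5 CPM (9.45 to 11.6) and 19.8 CPM (18.2 to 21.6), and counts per gene do not separate the deleted allele from an intact one. The libraries also differed in their tissue markers. A list of 10 keratinocyte genes summed to 21461 CPM in the intracranial library and to 3.10 CPM in the other, and a list of 10 macrophage genes summed to 2975 and 8784 CPM. In bulk tissue, fewer cells of a type and less RNA per cell cannot be told apart.

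The families differed in how much of each library they took. TIMP transcripts outweighed those of the proteases in both tumors. Summed TIMP levels were 2386 CPM in the intracranial library and 3203 CPM in the extracranial library, against 769.0 and 429.0 CPM for MMP genes, 321.1 and 380.8 CPM for ADAMTS genes and 258.6 and 203.1 CPM for ADAMTS-like genes. The MMP sum was thus 1.79-fold higher in the former library (log2 ratio -0.84, -0.87 to -0.81). The TIMP sum was 1.34-fold higher in the latter (0.42, 0.41 to 0.44). Mmp9 and a cluster of 9 genes on chromosome 9 carried the MMP difference. Mmp9 was at 318.8 and 90.8 CPM, and the cluster summed to 145.4 and 4.07 CPM. Of 16 MMP genes with a ratio interval, 10 intervals lay wholly below and 5 wholly above 1-fold. Mmp9 led the MMP sum of the intracranial library at 41.5%, and Mmp14 that of the other at 50.2%. Timp1 led the TIMP sums at 51.0% and 61.7%. The sums and the quotient below thus describe few genes rather than whole families. Per TIMP count there were 0.322 MMP counts (0.318 to 0.327) in the intracranial library and 0.134 (0.131 to 0.137) in the extracranial library. On CPM per kilobase of exon, the scale on which genes are compared with each other below, this quotient was 0.123 and 0.0386.

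**Figure D1:**
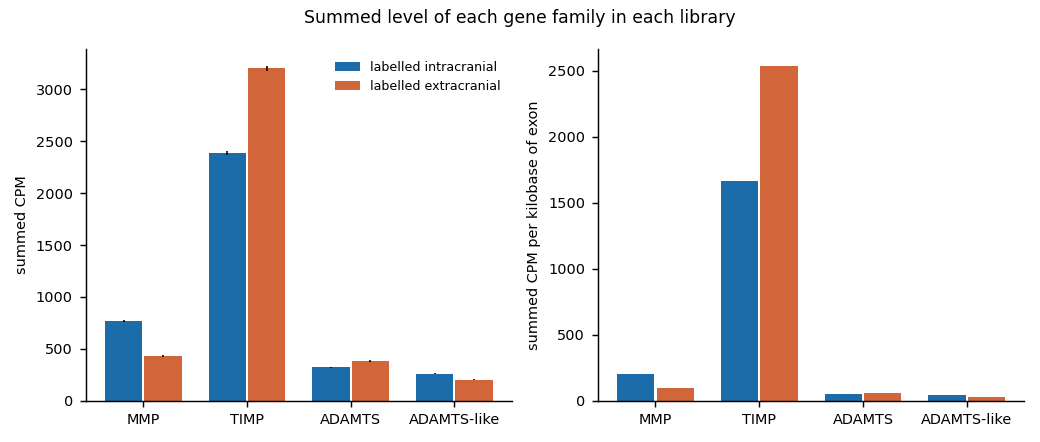
Summed level of the MMP, TIMP, ADAMTS and ADAMTS-like genes in each library, in CPM with exact 95% counting intervals (left) and in CPM per kilobase of exon (right). The TIMP bars are the tallest in both libraries on both scales, and the MMP bar of the intracranial library, 769.0 CPM, is above the 429.0 CPM of the other.

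Of the 50 members, 40 had 10 or more counts over both libraries and were assigned a ratio with an interval, and 8 of these were called. The share was 20.0%, against 7.19% of the 21977 genes tested and 8.94% of the protein-coding genes tested. The 6 members called as higher in the intracranial library were Mmp13, Mmp12, Mmp3, Mmp10, Mmp8 and Adamtsl5, where 5.41% of all genes and 6.83% of protein-coding genes were called in this direction. The 2 called as higher in the extracranial library were Adamts2 and Adamtsl1, against 1.78% and 2.11%. These backgrounds are given for reading the counts, and the 5 MMP genes among the called are neighbours on 1 chromosome. All 8 called members had 100 or more counts over both libraries, whereas the backgrounds hold every gene with 10 or more. Genes with few counts are less readily called, and no background of matched counts is given. The median log2 ratio of the members was -0.02, and that of all genes tested was -0.04, with 16 intervals wholly above and 16 wholly below 1-fold among the members. By family it was -1.34 for 16 MMP, 0.39 for 3 TIMP, 0.32 for 16 ADAMTS and -0.72 for 5 ADAMTS-like genes with an interval. For the 11 of these MMP genes outside the chromosome 9 cluster it was -0.15, with 5 intervals wholly above and 5 wholly below 1-fold. Within 2-fold lay 52.5% of the members with an interval and 72.4% of all genes tested. The remaining 10 members had too few counts, with at most 5 in either library. They comprised Mmp1b, Mmp7, Mmp20, Mmp21, Mmp24, Mmp27, Timp4, Adamts13, Adamts18 and Adamts19, for which no difference was detectable at this depth.

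**Figure D2:**
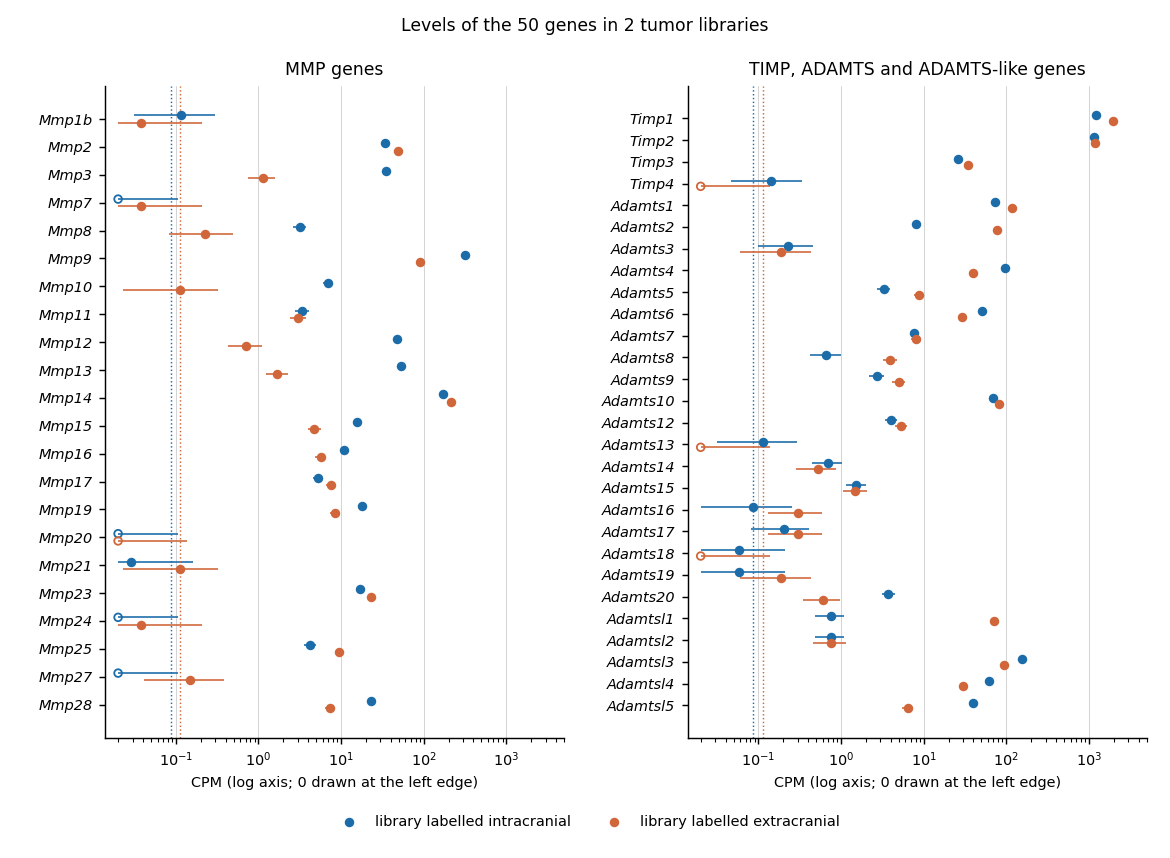
Level of each of the 50 genes in CPM on a log axis, with MMP genes on the left and TIMP, ADAMTS and ADAMTS-like genes on the right. Points are the 2 libraries, bars are exact 95% counting intervals, open points on the left edge are genes with 0 counts, and dotted lines mark 3 counts. Timp1 and Timp2 lie at 1144 CPM or more in both libraries, and Mmp3, Mmp10, Mmp12, Mmp13 and Adamtsl1 show the widest gaps.

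The largest gaps among the MMP genes were in a cluster on chromosome 9, where 9 member genes lie within 427 kb. Mmp13, Mmp12, Mmp3, Mmp10 and Mmp8 had between 110 and 1833 counts in the intracranial library and between 3 and 45 in the extracranial library. Their neighbours Mmp1b, Mmp27, Mmp20 and Mmp7 were at or near 0 in both. Summed over the 9 genes, the level was 145.4 CPM (141.4 to 149.5) against 4.07 CPM (3.34 to 4.91), which is 35.7-fold (log2 ratio -5.16, -5.44 to -4.88).

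Mmp13 (ENSMUSG00000050578), a collagenase that cuts fibrillar collagens and is known from cartilage and bone, had 1833 counts in the intracranial library and 45 in the extracranial library. The levels were 52.8 CPM (50.4 to 55.2) and 1.68 CPM (1.23 to 2.25), a 31.4-fold difference (log2 ratio -4.97, -5.43 to -4.55). Mmp12 (ENSMUSG00000049723), the macrophage elastase, had 1657 and 19 counts, which is 47.7 CPM (45.4 to 50.04) and 0.710 CPM (0.427 to 1.11). Its ratio was the most negative of all members, at -6.07 (-6.81 to -5.42), or 67.2-fold. Mmp12 is known as a product of macrophages, whose 10 markers were all higher in the extracranial library, at log2 ratios between 0.76 for Cd68 and 2.42 for Aif1. The part of macrophages in the level of Mmp12 was not tested.

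Mmp3 (ENSMUSG00000043613), or stromelysin 1, degrades proteoglycans and fibronectin and activates other MMP proenzymes. It had 1207 and 30 counts, at 34.7 CPM (32.8 to 36.8) and 1.12 CPM (0.756 to 1.60), and a log2 ratio of -4.95 (-5.53 to -4.43). Mmp10 (ENSMUSG00000047562), stromelysin 2, had 241 and 3 counts, so that the extracranial library stood at the floor, and the 61.9-fold ratio came with a counting interval of 20.9 to 302.1. Mmp8 (ENSMUSG00000005800), the collagenase stored in neutrophil granules, had 110 and 6 counts, and its ratio of 14.1-fold had an interval of 6.28 to 39.3. Mmp10 and Mmp8 passed the count minimum only through the intracranial library.

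The genes that flank the cluster had ratios near 1-fold. Dync2h1, a motor protein of cilia, and Dcun1d5 on the proximal side had log2 ratios of -0.37 (-0.56 to -0.18) and -0.11. On the distal side, Tmem123 had -0.15 (-0.22 to -0.08), and Birc2 and Birc3, inhibitors of apoptosis, had -0.10 and 0.14. The third gene on the proximal side, Ddi1, had 0 counts in both. Inside the cluster, Mmp1b had 4 and 1 counts, Mmp27 had 0 and 4, Mmp7 had 0 and 1, and Mmp20, the enamel protease of teeth, had 0 in both, for which the upper 95% limits were 0.106 and 0.138 CPM. Mmp1a, which the annotation lists as a polymorphic pseudogene and which was therefore no member, had 9 and 14 counts. Mmp12 and Mmp1b overlap on opposite strands over 2.17% of the exon bases of Mmp12, and whether strand was used in counting was not stated.

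**Figure D3:**
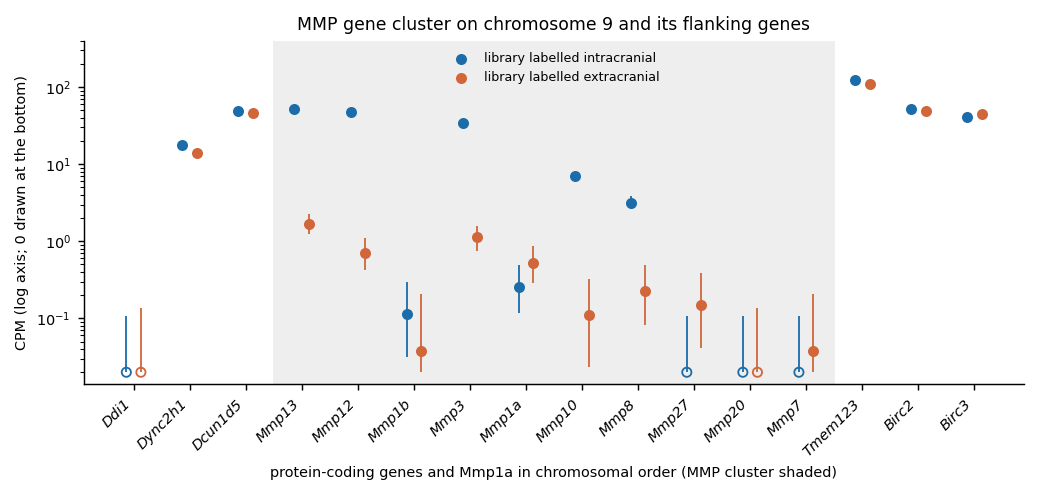
Level in CPM on a log axis of the genes of the chromosome 9 MMP cluster (shaded) and of 3 protein-coding genes on each side, in chromosomal order. Points are the 2 libraries with exact 95% counting intervals, and open points are genes with 0 counts. Mmp13, Mmp12, Mmp3, Mmp10 and Mmp8 separate by 14.1-fold or more, whereas the flanking genes with counts lie at log2 ratios between -0.37 and 0.14.

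Promoters of cluster genes were inspected for AP-1, the Jun and Fos dimer long known from MMP promoters. RefSeq promoter sequences were at hand for 35 of the 50 members, and the 250 bases before the start were searched on both strands for TGANTCA, which reads the same on either. It was found in 6.749% of 32851 promoters and in 6 of the 35 members (17.14%), namely Mmp13, Mmp3, Mmp10, Mmp1b, Mmp7 and Mmp20. All 6 lie in the chromosome 9 cluster. Of the 5 cluster genes that were called, Mmp13, Mmp3 and Mmp10 held it, with its first base 35, 46 and 63 bases before the start, and Mmp12 and Mmp8 did not. Of the cluster members with almost no counts, Mmp1b (4 and 1 counts), Mmp20 (0 and 0) and Mmp7 (0 and 1) held it too. Mmp27 (0 and 4) did not. Mmp7 held it at the same distance as Mmp10. The last 200 bases before the start are shown for the 5 called cluster genes and for Mmp7. They are from the GRCm38.p6 build, 5′ to 3′ on the strand of the gene, with TGANTCA in capitals. Mmp7 is shown as 1 of the neighbours with the same motif and almost no counts.
Mmp13, chr9:7272314-7272513, plus strand: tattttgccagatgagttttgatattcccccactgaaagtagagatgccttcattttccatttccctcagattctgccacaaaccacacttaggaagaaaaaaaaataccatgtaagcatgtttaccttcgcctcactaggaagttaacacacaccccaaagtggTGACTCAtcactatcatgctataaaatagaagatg
Mmp12, chr9:7344197-7344396, plus strand: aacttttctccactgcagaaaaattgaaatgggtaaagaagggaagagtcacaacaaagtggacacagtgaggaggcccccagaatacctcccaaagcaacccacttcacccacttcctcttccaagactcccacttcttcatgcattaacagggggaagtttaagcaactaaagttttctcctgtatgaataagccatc
Mmp3, chr9:7445622-7445821, plus strand: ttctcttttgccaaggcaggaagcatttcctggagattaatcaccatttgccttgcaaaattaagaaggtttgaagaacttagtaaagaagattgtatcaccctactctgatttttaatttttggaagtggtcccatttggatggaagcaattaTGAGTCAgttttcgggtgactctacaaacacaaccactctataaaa
Mmp10, chr9:7502142-7502341, plus strand: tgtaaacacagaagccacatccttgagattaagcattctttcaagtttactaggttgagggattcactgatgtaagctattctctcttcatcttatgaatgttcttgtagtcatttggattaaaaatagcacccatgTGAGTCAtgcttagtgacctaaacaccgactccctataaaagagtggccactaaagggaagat
Mmp8, chr9:7558229-7558428, plus strand: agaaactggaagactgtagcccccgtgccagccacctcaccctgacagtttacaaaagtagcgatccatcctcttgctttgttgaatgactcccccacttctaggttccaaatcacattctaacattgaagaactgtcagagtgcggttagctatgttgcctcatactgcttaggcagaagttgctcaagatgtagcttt
Mmp7, chr9:7691890-7692089, plus strand: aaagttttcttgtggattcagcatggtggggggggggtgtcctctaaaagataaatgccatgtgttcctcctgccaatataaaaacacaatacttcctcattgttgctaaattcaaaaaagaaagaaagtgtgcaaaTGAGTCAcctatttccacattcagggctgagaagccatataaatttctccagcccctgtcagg
The TATA element TATAAA was present in 12.37% of all promoters, in 9 of the 35 members (25.71%) and in 3 of the 5 called cluster genes. In Mmp13, Mmp3 and Mmp10 its first base lay 16, 7 and 29 bases before the start. All distances are counted from the annotated start, which was not checked here. The GC box GGGCGG was present in 32.74% of all promoters, in 20 of the 35 members (57.14%) and in 0 of those 5. Their GC content was 37.2 to 44.8%. The absence of these letters from a window says nothing about the factor. The transcripts of the AP-1 subunits were present in both tumors. Jun was at 234.7 and 275.6 CPM and Junb at 133.2 and 225.8 CPM, and Fos had a log2 ratio of 1.41 (1.30 to 1.52). Fosl1 was low in both, at 2.76 and 2.47 CPM. The part of AP-1 in the levels of the cluster genes was not tested.

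For contrast, promoters from outside the cluster are shown, that of Adamts2, which was called in the other direction, and that of Timp1, the most abundant member. Neither holds TGANTCA or TATAAA, and their GC contents were 78 and 54.4%.
Adamts2, chr11:50601885-50602084, plus strand: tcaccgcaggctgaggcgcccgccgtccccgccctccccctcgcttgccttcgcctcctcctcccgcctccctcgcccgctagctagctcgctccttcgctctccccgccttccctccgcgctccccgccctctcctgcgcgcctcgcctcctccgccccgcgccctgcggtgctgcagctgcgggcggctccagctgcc
Timp1, chrX:20869966-20870165, plus strand: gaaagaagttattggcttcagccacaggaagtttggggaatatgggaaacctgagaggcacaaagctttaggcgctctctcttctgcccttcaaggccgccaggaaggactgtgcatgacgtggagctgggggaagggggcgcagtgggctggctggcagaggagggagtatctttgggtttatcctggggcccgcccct

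Outside the cluster, 13 MMP genes remained, and 0 of the 11 with an interval were called. The gelatinases cut denatured collagen and the type IV collagen of basement membranes. Mmp9 (ENSMUSG00000017737) had 11078 and 2429 counts, at 318.8 CPM (312.9 to 324.8) and 90.8 CPM (87.2 to 94.5). It was 3.51-fold higher in the intracranial library (log2 ratio -1.81, -1.88 to -1.75), with an interval beyond 2-fold but within 4-fold. Mmp2 (ENSMUSG00000031740), the other gelatinase, had 1192 and 1307 counts, at 34.3 and 48.8 CPM, and was 1.42-fold higher in the extracranial library (0.51, 0.40 to 0.62). The gelatinases therefore differed in opposite directions. Mmp9 is known from neutrophils and osteoclasts, and the marker sums of both were higher in the intracranial library. The 11 neutrophil markers summed to 740.1 and 58.7 CPM. In the intracranial library S100a9 held 416.0 CPM and S100a8 held 258.2 CPM of this sum, and in the other Csf3r made up 98.1%. Of the 7 with an interval, 6 were called as higher in the intracranial library, S100a8 with 8970 and 9 counts and S100a9 with 14455 and 13. Csf3r went the other way, with 692 and 1542 counts, and the defining markers Ly6g, Elane and Mpo had at most 4 counts in either library. The 5 osteoclast markers summed to 868.8 and 166.0 CPM, with Acp5 at 10014 and 1802 counts. The part of these cells in the levels of Mmp8 and Mmp9 was not tested.

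Among the membrane-type MMPs, which are held at the cell surface, Mmp14 was the leading gene. Mmp14 (ENSMUSG00000000957), the activator of the Mmp2 proenzyme, had 6038 and 5765 counts, at 173.8 CPM (169.4 to 178.2) and 215.4 CPM (209.9 to 221.1), a log2 ratio of 0.31 (0.26 to 0.36). Mmp15 had 536 and 127 counts and was 3.25-fold higher in the intracranial library (2.67 to 3.98). Mmp16, with 382 and 151 counts, had a log2 ratio of -0.96 (-1.24 to -0.69). Mmp25 and Mmp17 are held by a lipid anchor instead of a transmembrane segment. Mmp25, a leukocyte protease, had 148 and 255 counts and a log2 ratio of 1.16 (0.86 to 1.46), and Mmp17 had 183 and 205 counts and 0.54 (0.25 to 0.84). Mmp24 had 0 and 1 counts.

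Of the remaining MMPs, Mmp28, or epilysin, is known from epithelia including epidermis. It had 790 and 199 counts, at 22.7 and 7.44 CPM, and was 3.06-fold higher in the intracranial library (2.61 to 3.59). In the same library 8 of 10 keratinocyte markers were called as higher, with Krt13 at 366709 and 5 counts, Krt5 at 25883 and 0 and Trp63 at 1284 and 0, and their part in the level of Mmp28 or of Mmp10, which keratinocytes also make, was not tested. Mmp19 had 621 and 227 counts and a log2 ratio of -1.08 (-1.30 to -0.85). Of its exon bases, 22.3% are shared on the opposite strand with Tmem198b, which had 1634 and 488 counts, and 12.0% of those of Mmp28 are shared with 1700020L24Rik, with 298 and 91 counts. Without knowledge of the strand setting, reads of such overlapping genes cannot be told apart. Mmp23, an MMP with an immunoglobulin-like domain in place of the usual hemopexin domain, had 582 and 620 counts and 0.47 (0.30 to 0.63). Mmp11, or stromelysin 3, lies 1.60 kb from Smarcb1 on chromosome 10, on the same strand with 0 protein-coding genes between them. It had 117 and 81 counts and a log2 ratio of -0.15 (-0.58 to 0.27), so that no difference was detectable next to the floxed gene. The 5.58% of its exon bases that overlap Chchd10 lie on the opposite strand.

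On CPM per kilobase of exon, the order of the MMP genes differed between the tumors. In the intracranial library Mmp9 led at 90.1, followed by Mmp14 at 29.2, Mmp13 at 19.7, Mmp3 at 19.3 and Mmp2 at 10.2. The intervals of Mmp13 (18.8 to 20.7) and Mmp3 (18.2 to 20.4) overlapped, so the order of these neighbours was not resolved. In the extracranial library Mmp14 led at 36.1, followed by Mmp9 at 25.6, Mmp2 at 14.5 and Mmp23 at 9.90, and every other MMP gene was at 2.40 or lower. Mmp9 made up 43.8% of the MMP sum per kilobase in the former, and Mmp14 made up 37.0% in the latter.

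**Figure D4:**
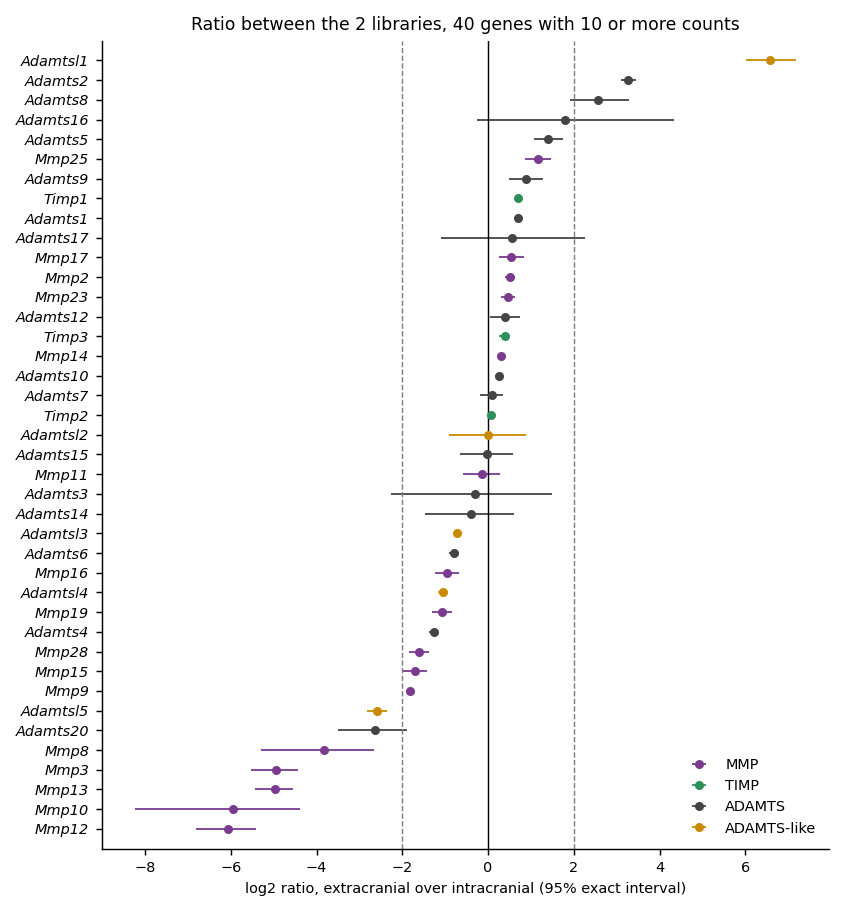
Ratio extracranial over intracranial of the 40 members with 10 or more counts over both libraries, on the log2 scale, ordered by size and colored by family. Bars are exact 95% counting intervals, and dashed lines mark 4-fold. The 5 MMP genes at the bottom, Adamtsl5 further up, and Adamts2 and Adamtsl1 at the top are the 8 whose intervals lie wholly beyond 4-fold.

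The inhibitors were led by Timp1 and Timp2, and 0 of the 3 TIMP genes with an interval were called. Timp1 (ENSMUSG00000001131), an X-linked inhibitor of most soluble MMPs, had 42259 and 52846 counts, at 1216 CPM (1205 to 1228) and 1975 CPM (1958 to 1992). It was 1.62-fold higher in the extracranial library (log2 ratio 0.70, 0.68 to 0.72). Timp2 (ENSMUSG00000017466), which inhibits MMPs and also serves Mmp14 in the activation of Mmp2, had 39739 and 31946 counts and was nearly equal, at 1144 and 1194 CPM (0.06, 0.04 to 0.08). Timp3, the matrix-bound inhibitor that also blocks aggrecan-cleaving ADAMTS, had 908 and 915 counts, at 26.1 and 34.2 CPM (0.39, 0.25 to 0.52). Syn3 overlaps 21.3% of its exon bases on the opposite strand but had only 9 and 14 counts. Timp4 had 5 and 0 counts. Per kilobase, Timp1 was at 1370 and 2224, Timp2 at 293.5 and 306.4 and Timp3 at 3.21 and 4.20. Timp1 alone was 82.2% and 87.7% of the TIMP sum on this scale.

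The ADAMTS genes with the most counts were active in both tumors, and 1 of 16 with an interval was called. Adamts2 (ENSMUSG00000036545) removes the amino-terminal propeptide of fibrillar procollagens, a step needed for normal fibrils. It had 280 counts in the intracranial library and 2082 in the extracranial library, at 8.06 CPM (7.14 to 9.06) and 77.8 CPM (74.5 to 81.2). The ratio was 9.66-fold (log2 ratio 3.27, 3.09 to 3.46). Its relatives in this role did not share the difference, since Adamts3 had 8 and 5 counts and Adamts14 had 24 and 14, with intervals that span 1-fold. The procollagen genes themselves differed by 1.22- to 1.39-fold, with Col1a1 at 1113 and 887.2 CPM, Col1a2 at 1733 and 2414 CPM and Col3a1 at 1093 and 894.3 CPM. The 8 fibroblast markers did not run 1 way. Dcn and Lum were called in the same direction as Adamts2, with 3745 and 21130 counts and 853 and 15309 counts, and Col1a2 was also higher in the extracranial library. The other 5, Dpt, Pi16, Pdgfra, Col1a1 and Col3a1, were higher in the intracranial library, at log2 ratios between -2.39 and -0.29, and the median of the list was -0.31. Their part in the level of Adamts2 was not tested.

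The ADAMTS proteases known to cut aggrecan and versican summed to about the same level, 180.6 and 177.3 CPM, with different leading genes. Adamts4 (ENSMUSG00000006403), or aggrecanase 1, had 3316 and 1059 counts, at 95.4 CPM (92.2 to 98.7) and 39.6 CPM (37.2 to 42.0), and was 2.41-fold higher in the intracranial library. Adamts1 (ENSMUSG00000022893) had 2547 and 3159 counts, at 73.3 CPM (70.5 to 76.2) and 118.0 CPM (114.0 to 122.2), and was 1.61-fold higher in the extracranial library. These opposite differences nearly cancelled in the sum, which had a log2 ratio of -0.03 (-0.08 to 0.03). Adamts5, or aggrecanase 2, lies 53.1 kb from Adamts1 on chromosome 16. It differed in the same direction, with 114 and 233 counts and a log2 ratio of 1.41 (1.08 to 1.74). Adamts8 and Adamts15 are neighbours on chromosome 9, on opposite strands and 20.1 kb apart, and did not differ alike. Adamts8 had 23 and 105 counts, a 5.93-fold ratio with an interval of 3.75 to 9.76 that just missed the threshold, whereas Adamts15 had 53 and 40 counts and -0.03 (-0.66 to 0.59). Adamts20, known from the belt of white fur in belted mice, had 130 and 16 counts, a 6.26-fold ratio in the other direction with an interval of 3.71 to 11.3. Its close relative Adamts9 had 94 and 133 counts and a log2 ratio of 0.88 (0.49 to 1.27). Aggrecan itself was nearly absent, with 8 and 2 counts for Acan, and Vcan, the gene of versican, had 1593 and 309 counts and a log2 ratio of -1.99 (-2.17 to -1.81).

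Adamts6 and Adamts10 are tied to fibrillin microfibrils. Adamts10 (ENSMUSG00000024299) had 2388 and 2181 counts, at 68.7 and 81.5 CPM (log2 ratio 0.25, 0.16 to 0.33), and Adamts6 (ENSMUSG00000046169) had 1757 and 782 counts, at 50.6 and 29.2 CPM (-0.79, -0.91 to -0.67). Adamts16 and Adamts17 had at most 8 counts in either library. Adamts7 and Adamts12, which cut cartilage oligomeric matrix protein, had 267 and 218 counts and 140 and 142 counts, with log2 ratios of 0.08 (-0.18 to 0.35) and 0.40 (0.05 to 0.74). Their substrate gene Comp was called, with 6474 counts in the intracranial library and 270 in the other. Adamts13, the protease of von Willebrand factor that is made in liver, had 4 and 0 counts. Per kilobase of exon, Adamts4 led the family at 19.8 in the intracranial library, ahead of Adamts1 at 13.8 and Adamts10 at 8.33. In the extracranial library Adamts1 led at 22.3, followed by Adamts10 at 9.87, Adamts2 at 8.33 and Adamts4 at 8.23, and the intervals of Adamts2 (7.98 to 8.70) and Adamts4 (7.74 to 8.74) overlapped.

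The ADAMTS-like genes held the most positive ratio of all members. Adamtsl1 (ENSMUSG00000066113), the gene of punctin 1, a secreted matrix protein, had 26 counts in the intracranial library and 1906 in the extracranial library. The levels were 0.748 CPM (0.489 to 1.10) and 71.2 CPM (68.1 to 74.5), a 95.2-fold difference (log2 ratio 6.57, 6.02 to 7.19). Adamtsl3 (ENSMUSG00000070469), the gene of the related punctin 2, did not share it, with 5446 and 2545 counts, 156.7 and 95.1 CPM and a log2 ratio of -0.72 (-0.79 to -0.65). Adamtsl5 (ENSMUSG00000043822) had 1360 and 173 counts, at 39.1 CPM (37.1 to 41.3) and 6.46 CPM (5.54 to 7.50), and was 6.05-fold higher in the intracranial library (5.16 to 7.13). Adamtsl4 (ENSMUSG00000015850), a partner of fibrillin in the suspension of the lens, had 2128 and 791 counts and was 2.07-fold higher there (1.91 to 2.25). Adamtsl2 had 26 and 20 counts and equal levels, at 0.748 and 0.747 CPM. Per kilobase, Adamtsl1 was the lowest of the 5 genes in the intracranial library, at 0.0586, and the third in the extracranial library, at 5.58.

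At an interval beyond 2-fold, 15 members were called, 11 as higher in the intracranial library and 4 in the other, against 15.6% of all genes tested. Added to the 8 above were Mmp9, Mmp15, Mmp28, Adamts4 and Adamts20 in the former direction and Adamts5 and Adamts8 in the latter.

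Other genes of the pathway are given by list, and their calls can be read against the 7.19% of all genes. In the plasminogen system, which activates several MMP proenzymes, 1 of 7 genes with an interval was called. This was Serpinb2, an inhibitor of urokinase, with 1141 and 0 counts, at least 292.9-fold higher in the intracranial library against the floor of 3 counts. Urokinase itself, Plau, was the most abundant of the list at 392.3 and 527.6 CPM. Of 12 proprotein convertases and other regulators of MMPs, 2 were called as higher in the intracranial library and 1 in the other. Lcn2, which forms a complex with Mmp9, had 696 and 29 counts, Spock2 had 310 and 12, and Spock3 had 13 and 80. Bsg, an inducer of MMPs on tumor cells, was at 296.2 and 352.8 CPM, and Furin, which activates the membrane-type MMPs, at 137.4 and 101.2 CPM.

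Of 11 ADAM genes, the membrane-bound relatives of the ADAMTS proteases, 1 was called, Adam28, with 102 and 0 counts, at least 26.2-fold higher in the intracranial library. Adam15 was the most abundant at 103.1 and 133.4 CPM. Of 14 other matrix proteases and their enhancers with an interval, 1 was called. This was Ctsk, the collagen-degrading cathepsin of osteoclasts, with 19658 and 2575 counts and a log2 ratio of -2.56 (-2.62 to -2.50), in the direction of Mmp9 and Mmp13. Ctsb and Ctss were at 1172 and 2036 CPM and at 819.5 and 1533 CPM. Of 15 substrates and partners with an interval, Comp and Thsd4 were called as higher in the intracranial library. Of 15 cytokines and transcription factors known to induce MMP genes, 2 were called, both in the direction of the cluster genes. Il6 had 523 and 8 counts (log2 ratio -5.65, -6.87 to -4.66), and Il1a had 497 and 17 counts (-4.49, -5.28 to -3.80). Il1b and Tnf were not called, at log2 ratios of 0.44 (0.36 to 0.52) and 0.55 (0.29 to 0.82). The part of Il6 and Il1a in the levels of the MMP genes was not tested.

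**Figure D5:**
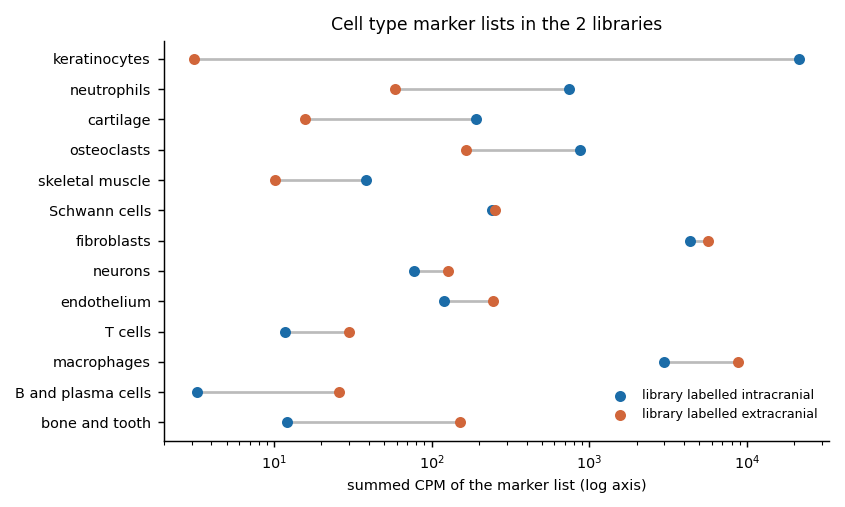
Summed CPM of each cell type marker list in the 2 libraries, on a log axis and ordered by the ratio of the sums. Keratinocyte markers sum to 21461 CPM in the intracranial library and to 3.10 CPM in the other, neutrophil and osteoclast markers are also higher in the former, and macrophage markers are higher in the latter, at 8784 CPM.

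Markers of other cells that a tumor of the head can hold were summed in the same way. Fibroblast markers summed to 4348 and 5696 CPM, endothelial markers to 120.6 and 245.2 CPM, T cell markers to 11.7 and 29.9 CPM and B and plasma cell markers to 3.25 and 25.9 CPM. Cd4, Cd8a and Cd8b1 were called as higher in the extracranial library, whereas the intervals of Cd3d, Cd3e and Cd3g spanned 1-fold. Cd79b was 87.5% of the B and plasma cell sum in the extracranial library. Cartilage markers summed to 192.2 and 15.7 CPM, of which Comp was 97.0% in the intracranial library, while Acan had 8 and 2 counts and Col2a1 had 23 and 21. Col11a2 had 111 and 81 counts, Matn3 had 57 and 41, Col9a1 had 2 and 3 and Matn1 had 2 and 1. Mmp13 is known from cartilage and bone, and the part of either tissue in its level was not tested. Bone and tooth markers summed to 12.1 and 151.5 CPM, of which Dmp1 was 98.4% in the extracranial library. Dmp1 was called in the direction of Adamtsl1, with 29 and 3988 counts. Bglap, Bglap2 and Ibsp were called in the direction of Mmp13, with 60 and 4, 107 and 1 and 186 and 15 counts. Sp7, with 17 and 31 counts, had a log2 ratio of 1.24 (0.35 to 2.19). Phex had 18 and 14 counts and a log2 ratio of 0.01 (-1.11 to 1.10). Skeletal muscle markers summed to 38.1 and 10.2 CPM, Schwann cell markers to 240.5 and 252.1 CPM and neuron markers to 76.8 and 127.8 CPM. The neuron markers did not run 1 way, with 4 intervals wholly above and 2 wholly below 1-fold. Nefl was 47.2% of their sum in the extracranial library. Snap25, with 830 and 199 counts, and Tubb3, with 629 and 118, were higher in the intracranial library. Among the Schwann cell markers, Sox10, with 43 and 0 counts, was called as higher in the intracranial library, whereas Egr2, with 630 and 2396, was called in the other direction, in which Mag, with 86 and 282, also differed. The part of these cells in the levels of the members was not tested.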

How the data were processed

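RNA of fresh frozen tumors was poly(A)-selected and prepared with a directional kit. Single reads were aligned with STAR 2.7.9a to GRCm39 with Ensembl gene models and counted with featureCounts, and the authors deposited raw counts per gene without normalization. Strand and multimapper settings are not given in the sources used here, so counts of overlapping or near-identical genes are uncertain.

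Symbols (52135 of 55416 genes, 94.1%), biotypes, exon lengths and gene order came from GENCODE mouse release 21 (GRCm38), and promoters from RefSeq (GRCm38.p6). Genes without a symbol (0.694% and 0.950% of counts) stayed in library sizes. Libraries were scaled by TMM of edgeR 4.0.16 in R 4.3.3 (factors 1.006 and 0.994). Level intervals were Clopper-Pearson and ratio intervals conditional exact binomial (scipy 1.17.1). Counts of 3 or fewer were set to a floor of 3 in ratios, not in intervals. With 1 library per location, edgeR's quasi-likelihood test had no residual degrees of freedom and was not run. The procedures were tested on simulated data.

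The members and lists were chosen with earlier results of these data known. By rule, members are named with full values if called, at 10 or more CPM or in a cluster, and pathway genes if called or among the 2 most abundant, of which 1 is not reported here. Flanking, overlapping and single marker genes, Col3a1, Acan, Vcan, Fos, Fosl1, Il1b and Tnf were named after their values were seen. Alternatives were DESeq2 1.42.0 size factors, total counts, upper quartile scaling, other count minimums and thresholds, the exact test of edgeR at a coefficient of variation set to 0.4, a prior count of 2, CPM per kilobase of exon and, chosen after seeing the data, a protein-coding background.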

Additional observations from a re-analysis of the deposited data

How the results depend on the processing

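No paired analysis was possible because there was 1 library per location, and leaving out a replicate would leave a location without a library. The 8 calls were the same 8 genes under DESeq2 size factors, total counts, upper quartile scaling, no count minimum and a minimum of 100 counts. With the interval beyond 2-fold, a looser threshold by construction, 15 members were called, 4 as higher in the extracranial library and 11 in the other. The ratio alone beyond 4-fold gave 10 calls, with Adamts8 and Adamts20 added, and the edgeR exact test at the assumed variation gave 7, without Adamtsl5. No share of all genes is given under either of these rules, and the exact test set no fold threshold. Their counts of members therefore cannot be read against the 7.19% of all genes. Of the 40 ratios under 3 other scalings, 2 near 0 changed sign, those of Adamts15 (0.01 with upper quartile) and Adamtsl2 (0.01 with DESeq2 size factors and 0.04 with upper quartile). The scalings moved the median of all genes by -0.02 to 0.04. The median log2 ratio of the members ranged from -0.05 with 100 or more counts to 0.02 with upper quartile scaling, and its sign turned there and with a prior count of 2 (0.01). Upper quartile scaling also moved the MMP sum of the intracranial library to 758.9 CPM and the TIMP sums to 2355 and 3246 CPM. Per kilobase of exon the sums were 205.5 and 97.8 for MMP, 1666 and 2535 for TIMP, 52.4 and 56.7 for ADAMTS and 43.3 and 26.4 for ADAMTS-like genes in the intracranial and extracranial libraries, and the MMP to TIMP quotient was 0.123 and 0.0386, a change of unit that kept each direction. Without replicates, none of these values separates a difference between locations from one between tumors, and genes under 10 counts were not resolved at this depth.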
